A study of Mus musculus with 16 samples.

Results

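Libraries of sorted mouse Paneth cells were divided by the share of their alpha-defensin counts that fell on Defa21 and Defa22. In each library the counts of these 2 genes were summed and given as a percent of the counts of all 28 protein-coding Defa genes. Of the 16 libraries, the 6 with a share of at least 9% were called high-share and the other 10 low-share. The libraries were thus selected on the measured share itself, and all Defa values below are a description with no test. All mice were C57BL/6J, and the Paneth cells were purified from the small intestine by flow cytometry, with 1 mouse per library as the methods give it. A first injection held PBS, the vehicle, or DEX, a name that the sources used here do not spell out. A second one, with PBS or the cytokine TNF (tumour necrosis factor), followed 1 h later, and tissue was taken 3 h after that. The groups are named by both injections, with 4 libraries each: DEX+TNF, PBS+PBS, DEX+PBS and PBS+TNF. Ages and doses are not given in the sources used here.

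Paneth cells sit at the base of the small intestinal crypts and fill their granules with antimicrobial proteins. Alpha-defensins are the most abundant of these. They are made as inactive precursors, which the protease Mmp7 cuts in mice. The mouse carries a tandem cluster of closely related Defa genes on chromosome 8, and its members are known to differ in level along the length of the gut. Lysozyme (Lyz1), the ribonuclease Ang4, the lectin Itln1 and the pentraxins Mptx1 and Mptx2 are other granule products.

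The share ran from 0.677% to 18.2%. In PBS+PBS it was 10.7%, 4.59%, 8.40% and 3.49% in libraries 1 to 4. In PBS+TNF it was 10.5%, 9.43%, 4.60% and 3.53%, and in DEX+PBS it was 0.677%, 4.04%, 6.21% and 14.0%. In DEX+TNF it was 13.9%, 18.2%, 5.10% and 1.41%. Each injection group thus held libraries of both classes, with 1 high-share library in PBS+PBS and in DEX+PBS and 2 in PBS+TNF and in DEX+TNF. The library just below the threshold was PBS+PBS 3 (8.40%, Wilson 95% interval 8.38% to 8.42%) and the one just above it was PBS+TNF 2 (9.43%, 9.40% to 9.46%). These intervals cover counting error only. The values form a gradient with no wide gap at 9%.

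**Figure D1:**
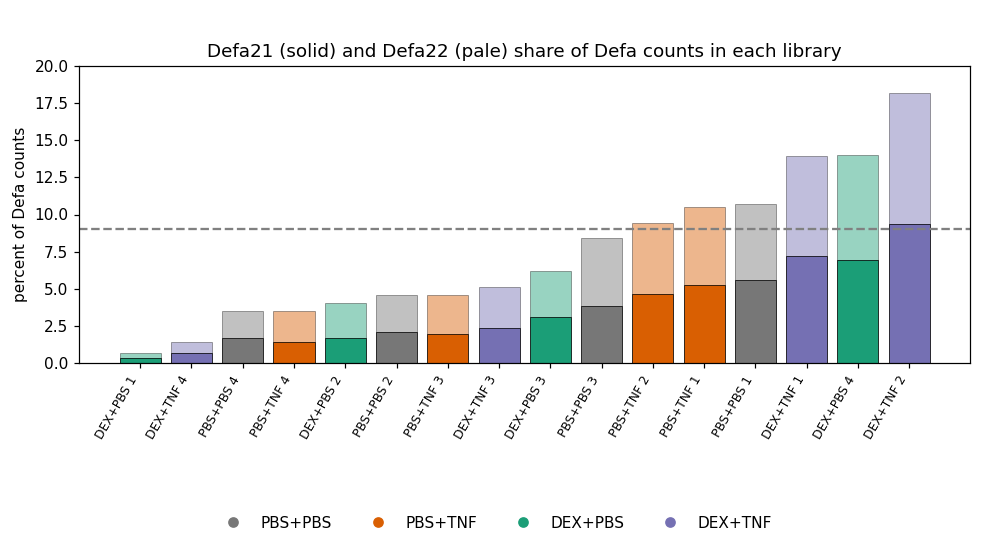
Share of Defa21 (solid) and Defa22 (pale) in the counts of all 28 Defa genes, in percent, for each of the 16 libraries in rising order. Colours are the injection groups and the dashed line is the 9% threshold; the 6 bars above it run from 9.43% to 18.2% and hold libraries of all groups.

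Both genes contributed about equally. Defa21 made up 49.1% to 52.3% of the counts of the pair in the high-share libraries (median 50.6%) and 40.1% to 50.3% in the low-share libraries (median 45.8%). Defa21 (chromosome 8, 21515557 to 21516533, plus strand, GRCm39) and Defa22 (21652290 to 21653265, plus strand) have transcripts that are 98.6% identical when aligned, with 2 mismatches and 4 gap positions. Of all 50-base stretches of the Defa21 transcripts 36.8% occur in no other Defa gene, and 27.5% of those of Defa22. How reads that match both were counted is not stated, so the sum of the pair is better defined than either gene.

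The other Defa genes did not keep constant proportions. Some members were nearly absent from the counts: Defa2, Defa20 and Defa23 had 17, 81 and 35 over all libraries. The paper, with reads quantified by Salmon, lists them among the most abundant Defa transcripts of a typical experiment. The shares are thus shares of the reads counted here, and where reads of such members went was not tested. Of 15 Defa genes with at least 10000 counts over all libraries, 7 had a higher median share in the high-share class and 8 a lower one. Defa35 did not overlap between the classes, and nor did Defa21 and Defa22, which set them. Defa35 took 0.0345% to 0.0822% of the Defa counts in the high-share class (median 0.0630%) and 0.00534% to 0.0262% in the low-share class (median 0.0133%). It is a rare transcript, and its ratio of medians, 4.75, was above that of Defa21 (3.42) and Defa22 (2.49). Defa29, which lies on the minus strand of the cluster, was at 0.807% to 3.40% (median 2.25%) against 0.158% to 1.34% (median 0.645%). Defa34 (median 0.376% against 0.191%) and Defa5 (0.363% against 0.204%) had the same direction of medians. None of the 50-base stretches of Defa5 is unique to it, so its counts are uncertain. Defa35, Defa34 and Defa5 were lowest in DEX+PBS 1 and DEX+TNF 4, the libraries in which Defa21 and Defa22 were also lowest, and Defa29 was lowest in DEX+PBS 1.

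The members with the most counts here, which need not be those with the most mRNA, had the opposite direction or overlapped. Defa30 had a lower share in the high-share class, with 17.4% to 24.3% of the Defa counts (median 19.3%) against 23.1% to 28.0% (median 26.3%). Defa24 was at 38.9% to 47.5% (median 43.1%) against 43.7% to 49.1% (median 45.7%). Defa38 (median 10.4% against 11.1%) and Defa39 (7.55% against 9.27%) overlapped widely. Shares of a total are bound to each other, so a gene can lose share without any loss of mRNA. All Defa genes together made up 32.3% to 59.3% of the counts of a high-share library (median 38.6%) and 32.2% to 54.5% of a low-share library (median 40.4%), and these ranges overlapped over most of their length.

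**Figure D2:**
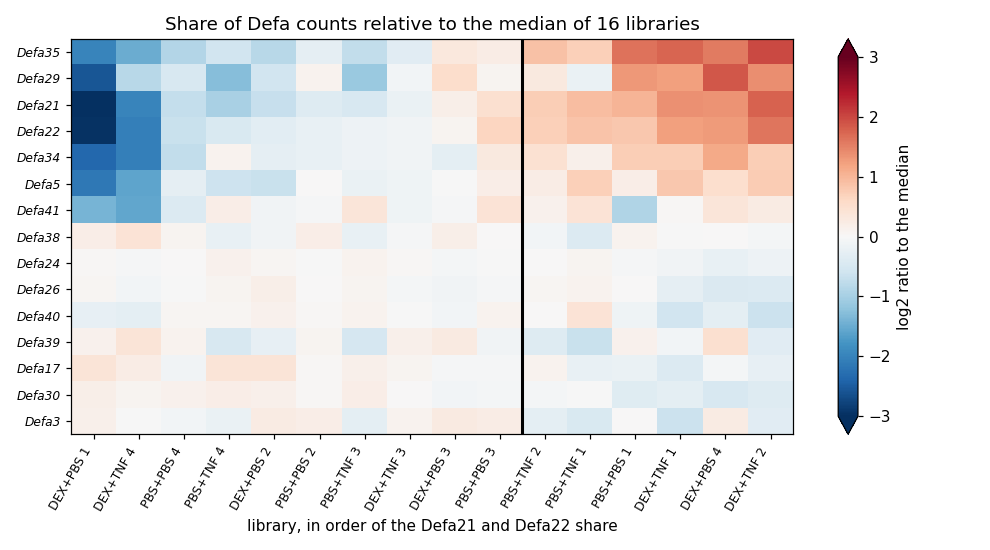
Share of each of the 15 Defa genes with at least 10000 counts, as the log2 ratio to its median over the 16 libraries, with libraries in rising order of the Defa21 and Defa22 share and the threshold as a black line. The colour scale ends at the values marked on its bar. Defa35, Defa29, Defa34 and Defa5 go from blue at the left to red at the right with the pair that set the order. Defa30 goes from pale red to pale blue.

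The promoter sequences of 16 Defa genes were held in the RefSeq table used here (GRCm38.p6, 250 bases before to 50 after the gene start). Those of Defa21 (chr8:21025295-21025594, plus strand) and Defa22 (chr8:21162027-21162326, plus strand) are the same in all 300 bases. They are shown with Defa35 (chr8:21064788-21065087, plus strand, 82.9% identical to Defa21 after alignment), which had a higher share in the same libraries. Defa30 (chr8:21134400-21134699, plus strand, 66.7%), which had a lower share, is shown too. The identity counts end gaps, so a window set by a shifted gene start scores lower. Defa41 has nearly the sequence of Defa35 in such a shifted window and scored 68.2%. The percentages are thus no plain measure of promoter divergence. Capitals mark ATCAAAG, a core to which the TCF proteins of the Wnt pathway are known to bind, searched on both strands (CTTTGAT on the other).
Defa21 and Defa22: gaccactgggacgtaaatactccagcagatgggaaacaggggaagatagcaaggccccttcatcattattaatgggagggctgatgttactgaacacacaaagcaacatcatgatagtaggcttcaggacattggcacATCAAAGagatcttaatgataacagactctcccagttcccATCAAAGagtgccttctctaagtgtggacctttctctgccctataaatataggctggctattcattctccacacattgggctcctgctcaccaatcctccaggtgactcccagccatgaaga
Defa35: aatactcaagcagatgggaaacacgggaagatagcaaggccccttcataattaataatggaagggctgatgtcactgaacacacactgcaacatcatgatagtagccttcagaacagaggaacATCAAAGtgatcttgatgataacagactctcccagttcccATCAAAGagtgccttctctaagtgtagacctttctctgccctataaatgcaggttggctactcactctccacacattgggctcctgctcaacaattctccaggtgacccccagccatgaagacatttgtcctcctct
Defa30: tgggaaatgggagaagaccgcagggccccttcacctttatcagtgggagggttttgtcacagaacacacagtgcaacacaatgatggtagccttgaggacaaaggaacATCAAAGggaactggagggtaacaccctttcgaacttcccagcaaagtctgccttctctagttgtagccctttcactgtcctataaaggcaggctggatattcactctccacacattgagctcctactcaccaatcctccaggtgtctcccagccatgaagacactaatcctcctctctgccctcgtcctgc
The motif occurs at 2 places in the promoters of Defa21, Defa22 and Defa35 and at 1 place in that of Defa30. Defa41 also holds 2 matches, and its share overlapped between the classes (0.00898% to 0.02225% against 0.005676% to 0.02227%). Whether the number of matches goes with the share was not tested. Of the 16 Defa promoters 13 hold at least 1 match and 9 at least 2, against 3.73% and 0.1% of the 32851 promoters of the table. A match is a string of letters and says nothing of binding. The sequences of Defa29, Defa34, Defa5 and Defa24 were not used here.

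The labelled cell type was checked by its markers. Lyz1 was at 41250 normalised CPM (counts per 1000000, scaled with trimmed mean of M-values factors) or more in every library and Defa genes took at least 32.2% of the counts in each. Total counts were 11216365 to 13978906 in the high-share and 7286307 to 15832111 in the low-share libraries. PBS+TNF 1 (high-share) and PBS+PBS 4 (low-share) stood apart, with 59.3% and 54.5% of counts in Defa genes and scaling factors of 0.418 and 0.503, so CPM values of granule genes in these libraries are scaled up. DEX+TNF 4 (low-share) had 3.33% of its counts in mitochondrial genes, against 0.489% to 1.67% in the other libraries, and the most genes with a count (16451). DEX+TNF also divided: in DEX+TNF 1 and 2 the TNF-induced gene Nfkbia was at 330 and 382 CPM, as in PBS+TNF (276 to 337 CPM), and in DEX+TNF 3 and 4 it was at 28.3 and 41.0 CPM. The first 2 of these are high-share and the last 2 low-share, so within DEX+TNF the share and the TNF response cannot be told apart. Results are therefore also given without DEX+TNF 3 and 4. The X-linked Xist had counts in all libraries and the Y-linked Ddx3y in none.

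Across the other genes, high-share libraries were compared with low-share libraries with the injection group as a covariate. No gene passed: edgeR called 0 of 11781 genes (0% of those tested) at an adjusted p under 0.05. The smallest adjusted p was 0.0533. Before adjustment, p was under 0.05 for 634 genes that were higher in the high-share class (5.38%) and 580 that were lower (4.92%). The median log2 difference of all genes was -0.02. Other tools drew the line elsewhere: DESeq2 called 78 genes (28 higher and 50 lower) and voom called 3. Of the genes named below, DESeq2 called Nrp2, Agt, Cxcl11, Zfp36, Gm32742, Apoh, Clca1, Krt23, Me1 and Mptx1, among others. The 3 of voom were Nrp2, Apoh and Clca1. Without DEX+PBS 4 edgeR called 50, among them Nrp2, Agt, Gm32742, Apoh and Krt23 (adjusted p from 0.0254 to 0.0418). The genes named next are those with the smallest p in each direction, and the statistics of each are those of a gene that edgeR did not call with all libraries.

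Nrp2, a co-receptor for semaphorins and vascular growth factors, had the smallest p (chromosome 1, 62742444 to 62857854, plus strand). In the high-share libraries it was at 24.8 CPM in PBS+PBS 1, 6.93 and 18.4 in PBS+TNF 1 and 2, 19.97 in DEX+PBS 4 and 27.3 and 29.4 in DEX+TNF 1 and 2. In the low-share libraries it was at 4.14 to 10.97 CPM (median 6.02). PBS+TNF 1 lay inside that range and the other 5 above it. The log2 difference was 1.67 (SE 0.26, edgeR adjusted p = 0.0533), and it was above 0 in each of the 4 injection groups, from 0.95 in PBS+TNF to 2.31 in DEX+TNF. Upper-quartile factors, factors without the Defa genes, a mean of at least 5 CPM and voom each brought Nrp2 past the threshold.

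Agt, the angiotensin precursor, was at 94.8 CPM in PBS+PBS 1 and at 62.1 and 92.6 CPM in DEX+TNF 1 and 2. It was at 30.9 in DEX+PBS 4 and at 16.4 and 27.8 in PBS+TNF 1 and 2, within the 11.3 to 39.02 CPM of the low-share class (median 19.2). Of the 6 high-share libraries 3 thus stood above all low-share ones (log2 difference 1.41, SE 0.27, edgeR adjusted p = 0.126). Gm32742, a predicted gene, had the same 3 libraries on top (45.1, 47.8 and 51.3 CPM against 9.41 to 27.2 in the low-share class; log2 difference 0.73, SE 0.16, edgeR adjusted p = 0.286).

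Cxcl11, a chemokine, and Zfp36, which promotes the decay of inflammatory mRNAs, were the remaining genes of this direction. Cxcl11 was at 23.3 and 87.0 CPM in PBS+TNF 2 and 1 and at 13.1 and 19.4 in DEX+TNF 1 and 2, but at 0.0856 in PBS+PBS 1 and 0.255 in DEX+PBS 4. Of the low-share libraries, PBS+TNF 3 and 4 had 18.3 CPM each and the other 8 at most 0.448. Its level followed the libraries with high Nfkbia. Zfp36 did so too, at 70.9 to 134 CPM in those libraries and 12.05 to 31.5 CPM in the others. The log2 difference of Cxcl11 was 2.96 (SE 0.62, edgeR adjusted p = 0.240), and that of Zfp36 was 0.82 (SE 0.18, edgeR adjusted p = 0.286).

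Apoh, a phospholipid-binding plasma protein, led the genes that were lower (chromosome 11, 108233964 to 108305232, plus strand). It was at 3.77 CPM in PBS+PBS 1, 3.26 in DEX+PBS 4, 3.06 and 2.504 in DEX+TNF 1 and 2, and 9.05 and 8.67 in PBS+TNF 1 and 2. The low-share libraries were at 6.73 to 24.5 CPM (median 16.2). The 4 libraries with the highest shares were below every low-share library and the 2 PBS+TNF libraries within their range. These 4 were set apart after the values were seen, and they are the high-share libraries outside PBS+TNF. PBS+PBS 1 (10.7%) and PBS+TNF 1 (10.5%) had almost the same share, so the split follows the injection group as well as the share. The log2 difference was -1.67 (SE 0.26, edgeR adjusted p = 0.0533), below 0 in all 4 injection groups. As for Nrp2, upper-quartile factors, factors without the Defa genes, a mean of at least 5 CPM and voom each brought Apoh past the threshold.

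The same 4 libraries stood apart in Me1, the cytosolic malic enzyme that makes NADPH. It was at 0.599, 0.967, 0.866 and 0.808 CPM in PBS+PBS 1, DEX+TNF 1, DEX+PBS 4 and DEX+TNF 2, at 10.2 and 21.3 in PBS+TNF 1 and 2, and at 6.68 to 34.2 in the low-share class. These 4 values lay below all others, while PBS+TNF 1 and 2 fell within the low-share range. The log2 difference was -2.86 (SE 0.55, edgeR adjusted p = 0.126).

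Krt23, a keratin, was the one gene of those named above and in the plot of the genes with the smallest p in which the classes did not overlap. It was at 3.47 to 10.2 CPM in the high-share and 11.3 to 20.8 CPM in the low-share libraries (log2 difference -1.17, SE 0.22, edgeR adjusted p = 0.126). Over all genes tested, 3 were higher in every high-share than in every low-share library (0.0255%) and 2 were lower (0.017%). Beside Krt23 these were R3hdml, Anxa5 and Cdyl (higher) and Ift22 (lower), and the last 4 are named after their values were seen. R3hdml was at 2.31 to 7.92 CPM against 0.213 to 1.76 (log2 difference 2.16, SE 0.42, edgeR adjusted p = 0.126). Anxa5, annexin A5, was at 23.9 to 40.1 CPM against 14.1 to 23.5.

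**Figure D3:**
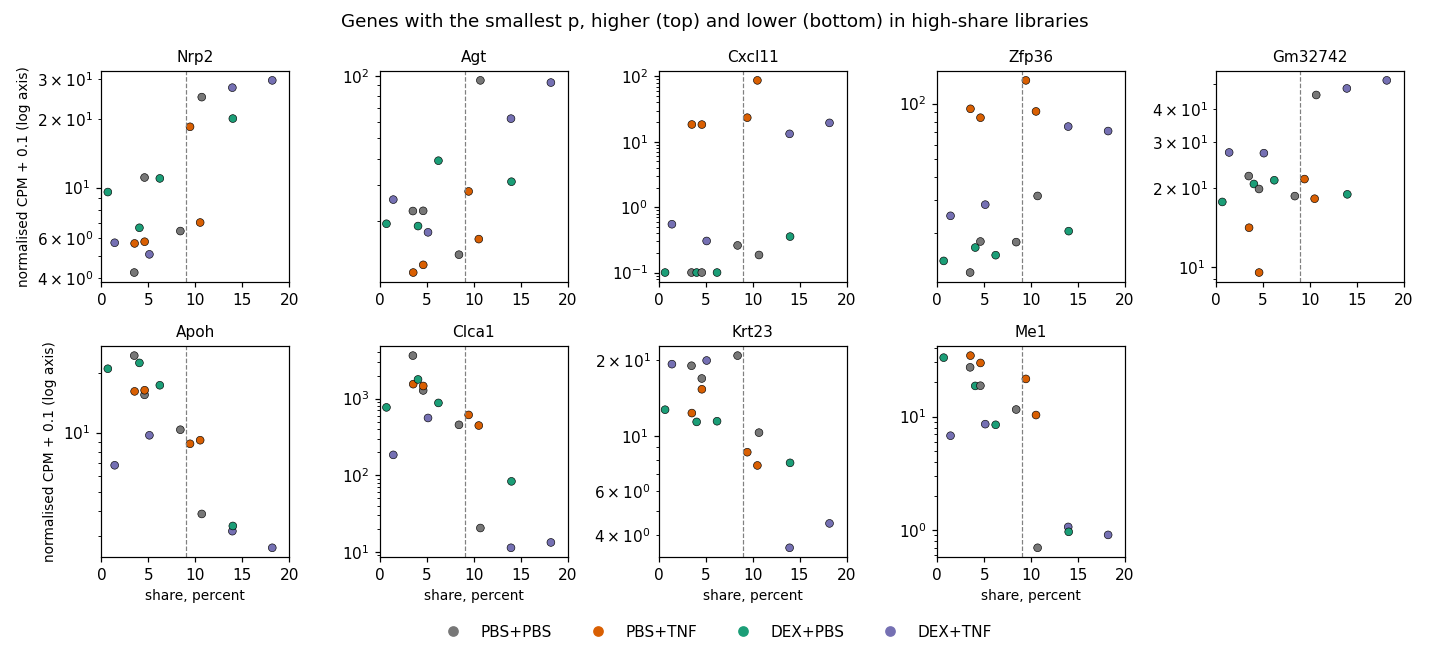
Normalised CPM plus 0.1 on log axes against the Defa21 and Defa22 share in percent, for the 5 genes with the smallest p that were higher (top) and 4 of the 5 that were lower (bottom) in the high-share class; each point is a library, coloured by injection group, and the dashed line is the 9% threshold. The 4 libraries farthest to the right are lowest in Apoh, Clca1 and Me1, and Cxcl11 separates by TNF response on both sides of the line.

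The 4 Paneth cell markers Clca1, Mptx1, Ang4 and Lyz1 had differences of unlike sign. Clca1, a secreted protease-like protein also made by goblet cells, was at 20.4 CPM in PBS+PBS 1, 83.0 in DEX+PBS 4, 11.2 and 13.2 in DEX+TNF 1 and 2, and 445 and 612 in PBS+TNF 1 and 2. In the low-share class it was at 184 to 3636 CPM (median 1077), so the 4 high-share libraries outside PBS+TNF were below all others. The log2 difference was -3.91 (SE 0.73, edgeR adjusted p = 0.126), and it was below 0 in all 4 injection groups, from -1.52 in PBS+TNF to -5.94 in PBS+PBS. voom and DESeq2 called Clca1 (adjusted p = 0.00415 and 4.994e-07).

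Mptx1, a mucosal pentraxin, had the same split in CPM. It was at 7.28 to 11.2 CPM in the 4 libraries with the highest shares, at 320 and 145 CPM in PBS+TNF 1 and 2, and at 27.6 to 496 CPM in the low-share class (log2 difference -3.10, SE 0.87, edgeR adjusted p = 0.369). Ang4 was at 8216 to 15860 CPM in the 4 libraries, at 115700 and 25870 in PBS+TNF 1 and 2, and at 18080 to 90820 in the low-share class (log2 difference -1.10, SE 0.60, edgeR adjusted p = 0.529). Relative to the alpha-defensins, a scale on which library scaling drops out but whose denominator is also that of the share that set the classes, Ang4 had 3.51 to 4.19 counts per 100 Defa counts in the 4 libraries, 8.16 and 9.54 in PBS+TNF 1 and 2 and 6.64 to 14.2 in the low-share class.

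Lyz1 had the opposite sign. Per 100 Defa counts it had 50.6 counts in PBS+PBS 1, 48.9 in DEX+PBS 4, 38.8 and 40.6 in DEX+TNF 1 and 2, and 15.4 and 29.0 in PBS+TNF 1 and 2, against 12.2 to 26.6 (median 19.8) in the low-share class. On this scale 5 of the 6 high-share libraries were above every low-share library, which is a description, since the Defa total also enters the share. In CPM the classes overlapped (78770 to 218600 against 41250 to 222800; log2 difference 0.76, SE 0.46, edgeR adjusted p = 0.564). In bulk RNA, fewer cells of a kind and less RNA per cell cannot be told apart.

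**Figure D4:**
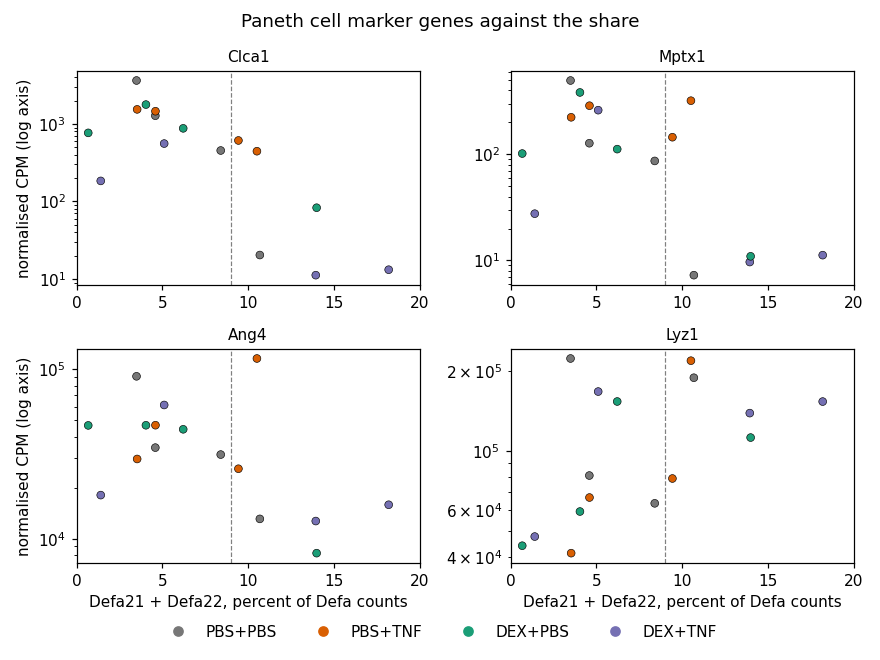
Normalised CPM on log axes of Clca1, Mptx1, Ang4 and Lyz1 against the Defa21 and Defa22 share in percent; each point is 1 of the 16 libraries, coloured by injection group, and the dashed line is the 9% threshold. Clca1 drops from 184 to 3636 CPM in the low-share class to 11.2 to 83.0 CPM in the 4 libraries farthest right, with PBS+TNF 1 and 2 at 445 and 612.

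Of 12 tested genes of other granule and secreted proteins, 2 were lower at an unadjusted p under 0.05, against 4.92% of all genes. They were the pancreatic-type lipase Pnliprp2 (log2 difference -1.22, SE 0.37) and its cofactor colipase, Clps (-0.82, SE 0.31). edgeR called none of the 12, and DESeq2 called Pnliprp2 (adjusted p = 0.0163). Clps was at 1875 to 6424 CPM (median 2796) in the high-share and 3458 to 8343 CPM (median 5299) in the low-share libraries. Mmp7, which activates alpha-defensin precursors, was at 3672 to 17390 CPM against 2987 to 14900 (log2 difference -0.31, SE 0.50, edgeR adjusted p = 0.830). Mptx2 (-0.50, SE 0.57, adjusted p = 0.761) and Itln1 (-0.17, SE 0.34, adjusted p = 0.867) were likewise not called. In none of these 3 did the classes separate.

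Genes that differ along the gut were read because alpha-defensin members do as well. Gata4, a transcription factor of the proximal small intestine, was at 9.62 to 27.3 CPM in the high-share and 11.9 to 35.6 CPM in the low-share class (log2 difference 0.08, SE 0.26, edgeR adjusted p = 0.926). Osr2, a transcription factor of the distal list, was at 5.58 to 11.7 CPM against 4.24 to 13.2 (0.03, SE 0.23, edgeR adjusted p = 0.960). Both signs changed in some alternatives. The bile acid carrier Fabp6 was at most 0.193 CPM in the high-share class and reached 17.2 CPM in PBS+PBS 4. Of 7 tested genes of the distal list, 2 were higher at an unadjusted p under 0.05 (5.38% of all genes), among them Hoxb9 (log2 difference 1.06, SE 0.32). Only Fabp6 was lower at that level (-4.95, SE 1.60, against 4.92% of all genes), and none of the list was called. Of 9 tested proximal genes, Apoa4, Fabp1 and Rbp2 were lower at that level (4.92% of all genes). Each of them is also on the enterocyte list below, so the 2 lists are not separate readings. Without DEX+TNF 3 and 4, where 1.25% of 12193 genes were higher and 1.6% lower at that level, 2 of 9 proximal genes were lower, and 2 of 10 distal genes were lower and 0 higher.

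Markers of tuft cells and enterocytes were lower in the high-share class, short of a call. All 9 tested tuft cell genes, which mark the chemosensory cells of the epithelium, were lower at an unadjusted p under 0.05 (background 4.92%), with a median log2 difference of -3.01 against -0.02 over all genes, and edgeR called none. Their summed level was 0.242 to 89.5 CPM (median 5.26) in the high-share and 8.42 to 909 CPM (median 89.4) in the low-share libraries, highest in DEX+TNF 4. Dclk1, for example, was at 0 in DEX+TNF 1 and 2 and at 53.8 and 206 CPM in DEX+TNF 3 and 4. DEX+PBS 4 went the other way, with 23.6 CPM of Dclk1. With DEX+TNF 3 and 4 left out, all 9 differences stayed below 0 with a median of -1.76, and 2 reached an unadjusted p under 0.05 (1.6% of all genes were lower at that level). Without DEX+PBS 4 the median was -4.84, and edgeR called Dclk1 (-5.55, adjusted p = 0.0450).

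Of 12 tested enterocyte genes 9 were lower at that level (background 4.92%), with a median of -1.29. Their sum was 125 to 429 CPM (median 162) against 154 to 855 CPM (median 379). The apolipoprotein gene Apoa1 was at most 0.611 CPM in the high-share libraries and at 0.247 to 87.5 CPM in the low-share ones (log2 difference -5.97, SE 1.503, edgeR adjusted p = 0.286). Apoa4 was at 0 in all 6 high-share libraries. In the fit without DEX+TNF 3 and 4, 6 of 13 tested enterocyte genes were lower (background 1.6%). Of the 12 immune genes only Ptprc, the common leukocyte antigen, was abundant enough to be tested (0 to 0.408 CPM against 0.0638 to 21.0; log2 difference -5.22, SE 0.99, edgeR adjusted p = 0.126), and 7 of the 12 were at 0 in all libraries. Without DEX+PBS 4 edgeR called Ptprc (log2 difference -9.56, adjusted p = 0.0254) and Apoa1 (-9.71, adjusted p = 0.0450), and with all libraries DESeq2 called Ptprc (adjusted p = 0.00189). DEX+TNF 4, the library with the most mitochondrial counts, had the highest summed level of the tuft cell, enterocyte, immune, stem and cycling cell genes, and the part of RNA quality was not tested. Without this library the enterocyte median was -0.81. Stromal and red blood cell genes summed to at most 0.847 and 0.648 CPM in any library. These levels are small beside those of the Paneth cell genes, and their part in the other differences was not tested.

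Of 17 tested goblet cell genes 5 were lower and 1 was higher at an unadjusted p under 0.05 (background 4.92% and 5.38%), with a median of -0.04. The lower ones were Clca1, Klk1, Retnlb, Rep15 and Tpsg1, and the higher one was Fcgbp. Muc2, the main gel-forming mucin, was at 1006 to 6454 CPM against 802 to 4274 (log2 difference 0.55, SE 0.50, edgeR adjusted p = 0.700). All 10 cycling cell genes had a log2 difference below 0 (median -0.55 against -0.02 over all genes), none at an unadjusted p under 0.05. The cycling cell median was -0.15 without DEX+TNF 4, -1.26 without DEX+PBS 4 and 0.06 without DEX+TNF 3 and 4. Of 9 stem cell genes and 7 MHC class II genes none reached that level either.

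Of 10 tested genes of the immediate early response, which is fast and is also set off by tissue dissociation, 6 were higher at an unadjusted p under 0.05 (background 5.38%; median log2 difference 0.71). Egr1 was at 23.4 to 76.7 CPM in the high-share and 2.91 to 52.8 CPM in the low-share class (log2 difference 1.23, SE 0.31, edgeR adjusted p = 0.291). It was above 0 in all 4 injection groups. With these DEX+TNF libraries (3 and 4) left out, 4 of the 10 were higher (background 1.25%) and the median was 0.35. Time from death to lysis is not given per library in the sources used here, and its part was not tested.

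Genes of the TNF response took their difference from DEX+TNF. Of 14 tested NF-kB and TNF target genes 13 had a log2 difference above 0 (median 0.90 against -0.02 over all genes). At an unadjusted p under 0.05, 1 was higher (background 5.38%) and 1 was lower (background 4.92%). Nfkbia was higher in high-share libraries by 3.36 on the log2 scale within DEX+TNF, against -0.47 in PBS+PBS, -0.02 in PBS+TNF and 0.18 in DEX+PBS. Tnfaip3 differed by 4.60 within DEX+TNF and by -0.22 to 0.30 in the other groups. Without DEX+TNF 3 and 4 the median of the list was -0.15 and 12 of 14 genes had a difference below 0. Sgk1, a glucocorticoid-induced kinase gene, was at 1.11 to 48.5 CPM against 2.03 to 114 (log2 difference -0.41, SE 0.34, edgeR adjusted p = 0.669). For the antimicrobial lectins the log2 differences were 0.64 (Reg3g, SE 0.41, edgeR adjusted p = 0.581) and 0.24 (Reg3b, SE 0.44, adjusted p = 0.851).

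**Figure D5:**
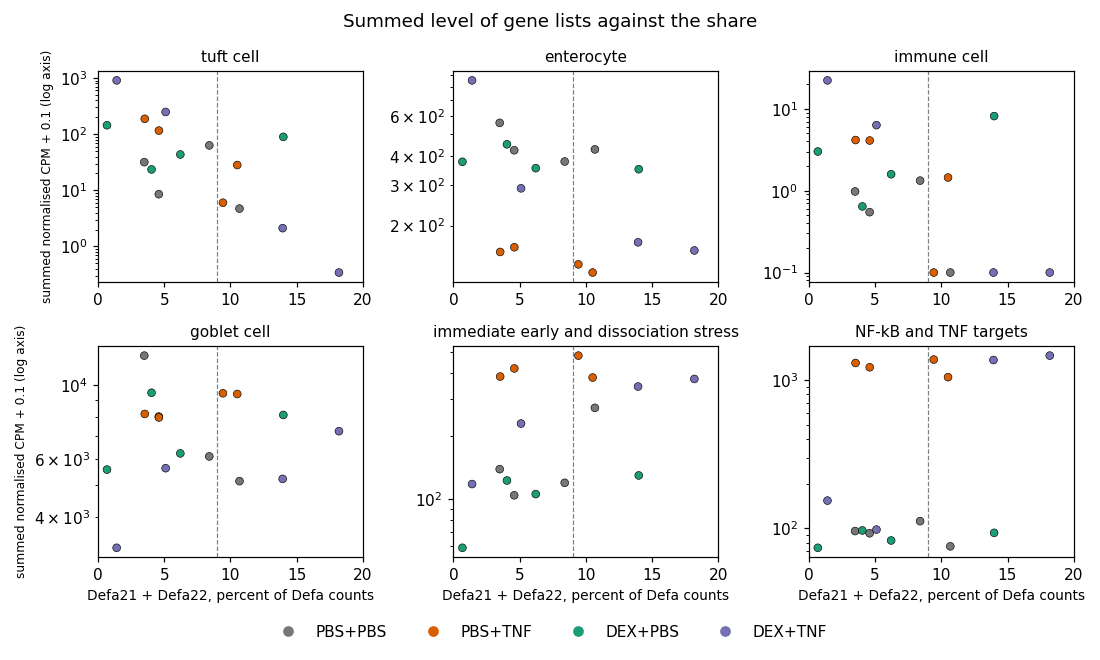
Summed normalised CPM plus 0.1 of 6 gene lists, on log axes, against the Defa21 and Defa22 share in percent, with a point per library, colours for the injection groups and a dashed line at 9%. Tuft cell sums are 0.242 to 89.5 CPM right of the line and 8.42 to 909 CPM left of it, and the NF-kB sums of DEX+TNF lie near those of PBS+TNF right of the line and near those of the libraries without TNF left of it.

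Whether the difference between the classes itself differed between libraries with and without TNF was tested as an interaction. edgeR called 0 of 11781 genes (0%), and DESeq2 called 70. Before adjustment 1062 genes had an edgeR p under 0.05, and after it the smallest was 0.103. For Clca1 the interaction was 1.60 (SE 1.24, edgeR adjusted p = 0.777) and for Me1 2.84 (SE 0.81, edgeR adjusted p = 0.331). The difference of Me1 was -1.08 in PBS+TNF and -2.53 in DEX+TNF, against -4.07 in PBS+PBS and -3.70 in DEX+PBS.

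The share was also entered as a number in place of the 2 classes. edgeR then called 17 of 11781 genes (0.144%), 7 that rose and 10 that fell with the share. All 17 were named after their values were seen, except Cxcl11, Me1 and Apoh. Cxcl11 rose by 0.35 on the log2 scale per percentage point (SE 0.04, edgeR adjusted p = 0.00366). Casp4, an inflammatory caspase that senses bacterial lipopolysaccharide, rose by 0.18 (SE 0.03, adjusted p = 0.0255) and Hoxb9, a homeobox gene of posterior segments, by 0.14 (SE 0.02, adjusted p = 0.0255). Tshz2, Rasd1, Sync and R3hdml were the others that rose.

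Casp4 was at 55.0 to 191 CPM in PBS+TNF 1 to 4 and DEX+TNF 1 and 2 and at most at 6.43 CPM in the other 10 libraries, the division also seen in Nfkbia. Rasd1 (7.33 to 14.6 against 1.09 to 3.97 CPM) and Sync (24.7 to 58.3 against 3.89 to 14.8 CPM) divided between the same libraries. Tshz2 had no such division, at 2.29 to 10.3 CPM in the high-share and 0.243 to 3.36 CPM in the low-share class. It was above 0 in the difference of each injection group, from 0.74 to 2.49.

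Of the genes that fell, Me1 (-0.30 per percentage point, SE 0.05, edgeR adjusted p = 0.0185), Fabp1 (-0.56, SE 0.09, adjusted p = 0.0185) and Apoa4 (-0.97, SE 0.14, adjusted p = 0.0115) serve lipid metabolism and transport. Cdo1, which degrades cysteine, fell by 0.12 (SE 0.02, adjusted p = 0.0185) and Apoh by 0.16 (SE 0.03, adjusted p = 0.0255). Gsdmc3, Pla2g4c, Rgma, Cpe and Klhdc7a were the others. Fabp1 and Apoa4 are on the enterocyte list. Pla2g4c was at 0 in the 4 libraries with the highest shares and at 1.37 to 67.4 CPM in the low-share class, and Gsdmc3 was at most 0.121 CPM in the high-share class. The prior count of the fit sets the slope of a gene that is at 0 in several libraries.

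The 17 calls depended on the libraries and the scale. Without DEX+TNF 3 and 4 none of the 17 was called, and all 17 kept their sign. The slopes of Me1 (-0.35 per percentage point), Apoh (-0.22) and Tshz2 (0.23) were then as large or larger, while those of Casp4 (0.0924), Sync (0.0846), Cpe (-0.22) and Klhdc7a (-0.14) were smaller by over 1.5 times than with all libraries (0.18, 0.15, -0.40 and -0.21). With the log2 of the share, or with the replicate number as a block, 4 of the 17 were called. Without DEX+TNF 1 or DEX+TNF 2 alone 1 gene was called, without DEX+TNF 4 alone 3, and without DEX+TNF 3 alone 9. Without DEX+PBS 4 edgeR called 816 genes, the 17 among them.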

How the data were processed

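Raw read counts per Ensembl gene were deposited by the authors, with 1 column per library and no normalisation. Per the labels, stranded mRNA libraries were made from total RNA, and the submitters' processing notes name FastQC 0.12, STAR 2.7.10a and DESeq2. The program that made the counts, the handling of reads matching several genes and the use of strand are not given in the sources used here, so counts of near-identical Defa genes are uncertain. GENCODE M39 named 54749 of 55414 identifiers, and the rest held 0.00519% of counts. Promoters came from RefSeq (GRCm38.p6).

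Groups came from the sample labels, and the study's design calls the libraries biological replicates. All 24 pairs of libraries within a group differed by more than sampling noise (lowest chi-square per degree of freedom 8.78, DEX+TNF 1 and 2). The members, the gene lists and the tests were chosen with earlier results of these data known. Counts passing filterByExpr were scaled with TMM factors, the 28 Defa genes were then left out, and 11781 genes were fitted over all 16 libraries with edgeR 4.0.16 (R 4.3.3, quasi-likelihood, robust, two-sided, Benjamini-Hochberg) with the injection group as a covariate and 11 residual degrees of freedom. The standard error (SE) is the log2 difference divided by the square root of F. Differences within injection groups are means of log2(CPM + 0.5). Named genes are the 5 with the smallest p per direction and a mean of at least 5 CPM, since none was called, and 18 genes fixed by name. One of the 5 lower genes and 1 gene of the distal list are not reported here. Alternatives used DESeq2 1.42.0, voom (limma 3.58.1), other scaling factors and filters, thresholds of 8% and 10%, the share as a number, the replicate number as a block, no covariate, and each library left out. The test was checked on simulated counts.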

Additional observations from a re-analysis of the deposited data

Results flagged for a closer look

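Within the high-share class, PBS+TNF 1 was far above the other 5 libraries in Ang4 (115700 CPM), Mmp7 (17390 CPM), Mptx2 (56470 CPM) and Cxcl11 (87.0 CPM). This is the library with the scaling factor of 0.418. Within the low-share class, PBS+PBS 4, with a scaling factor of 0.503, was far above the other 9 libraries in Clca1 (3636 CPM) and Fabp6 (17.2 CPM). DEX+PBS 3 was far above them in Agt (39.02 CPM) and DEX+TNF 4 in Sgk1 (114.5 CPM). Of 52 sets of values tested for a value far from the rest, 8 were flagged. The rule flags about 5% of sets of normally distributed values. CPM values are skewed and each class mixes injection groups, so the 8 cannot be read against that rate.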

How the results depend on the processing

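The count of called genes was 0 with all libraries. It was also 0 with median-of-ratios factors, thresholds of 8% and 10%, no covariate, the replicate block, an adjusted p under 0.01, and without DEX+TNF 3 and 4. All 4 injection groups hold both classes, so restricting to such groups changed nothing. It was 2 with upper-quartile factors, 2 with TMM factors without Defa genes, 2 when at least 5 CPM on average was required, 3 with voom, 17 with the share as a number, 78 with DESeq2 and 409 without a low-count filter, 353 of them tested in the filtered fit too. The cause was not tested. Leaving out a library gave 0 to 50 (50 without DEX+PBS 4, 2 without PBS+PBS 4 or PBS+TNF 1, 1 without PBS+PBS 2). The interaction count of 0 was 70 with DESeq2, 366 without a filter and 0 to 7 with a library left out (7 without PBS+TNF 2, 1 without DEX+PBS 4 or PBS+TNF 3). The 17 calls with the share as a number became 447 with DESeq2, 58 without a filter, 4 with the log2 of the share, 7 with the replicate block (4 of the 17 among them), 0 without DEX+TNF 3 and 4, and 1 to 816 with a library left out (1 without DEX+TNF 1 or 2, 3 without DEX+TNF 4, 9 without DEX+TNF 3, 27 without PBS+PBS 2, 54 without PBS+TNF 1, 816 without DEX+PBS 4). These alternatives of the numeric share were added after seeing the data. Of 24 same-number pairs across groups, 13 had a correlation of deviations above 0.1 (-0.597 to 0.528), with a median of 0.223 against -0.0642 for pairs of unlike number, and 6 of 16 libraries correlated best with their own number. Since not all same-number pairs exceeded 0.1, the numbers were not taken as a pairing. A partial link by number would also fail this rule. The classes were uneven across the numbers. High-share libraries were number 1 in PBS+PBS, PBS+TNF and DEX+TNF, number 2 in PBS+TNF and DEX+TNF and number 4 in DEX+PBS. None was number 3. What the numbers stand for is not given in the sources used here.

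Of 47 genes under up to 30 alternatives, 8 changed sign at least once. The log2 fold change of Gata4 was -0.003487 with upper-quartile factors, -0.0181 per point with the numeric share, -0.13 with a threshold of 10% and -0.13 with the replicate block, and Osr2 was -0.0405 with upper-quartile factors. Without DEX+TNF 3 and 4 Nfkbia was -0.0846, Tnfaip3 -0.11 and Sgk1 0.0219. With a library left out, Gata4 ran from -0.0789 to 0.27, Osr2 from -0.0834 to 0.11, Mmp7 from -0.77 to 0.0372, Itln1 from -0.31 to 0.0328 and Xist from -0.16 to 0.25. Without DEX+TNF 3 and 4 the median of the NF-kB list was -0.15.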

Other observations

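Other gene lists are read beside the shares of all genes at an unadjusted p under 0.05, 5.38% higher and 4.92% lower. Of 12 tested circadian clock genes 3 were lower and 1 higher at that level. Without DEX+TNF 3 and 4, 2 of 13 were lower and 0 higher (background 1.6% and 1.25%). Per3, a period gene, was at 0.962 to 1.97 CPM in the high-share and 1.73 to 5.397 CPM in the low-share class (log2 difference -0.96, SE 0.28, edgeR adjusted p = 0.379), and Cry1, a clock repressor, was at 9.12 to 24.6 against 5.73 to 18.0 CPM (0.56, SE 0.22, edgeR adjusted p = 0.415). Sampling times per library are not given in the sources used here, and their part was not tested.

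Of 17 tested Paneth lineage regulators and niche signals only the growth factor gene Egf reached that level (log2 difference 0.57, SE 0.19, edgeR adjusted p = 0.384). One of 19 genes of the unfolded protein response (Atf3) and 1 of 12 genes of cholesterol synthesis and uptake (Sc5d) were higher. Of 10 microbe-responsive epithelial genes Retnlb was lower, and of 11 glucocorticoid-induced genes 1 was higher and 1 lower. Of 4 tested enteroendocrine genes Tac1 was higher. None of 6 metallothionein and zinc genes reached that level, and no gene of any list was called by edgeR between the 2 classes. These examples beyond the naming rule were chosen after their values were seen.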
